A study of Mus musculus with 6 samples.

Results

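Matrix metalloproteinases (MMPs) and the tissue inhibitors of metalloproteinases (TIMPs) were followed in RNA-Seq of C2C12 cells, a mouse myoblast line that forms myotubes in low serum. The set holds 10 genes, of 23231 genes with counts in the series, chosen by name with earlier results of these data known. They are *Mmp2*, *Mmp3*, *Mmp13* and *Mmp14*, grouped as fibroblast-type proteases, *Mmp8*, *Mmp9* and *Mmp12*, grouped as macrophage-type proteases, and the inhibitors *Timp1*, *Timp2* and *Timp3*. All 10 were listed with counts in at least 1 library. The control was dCas9-KRAB, C2C12 cells with a nuclease-dead Cas9 fused to the KRAB repressor domain and no enhancer sgRNA (3 libraries), and it was compared with dCas9-KRAB-En5, C2C12 cells that carried the same fusion with sgRNAs against Myog-En5, an enhancer of the myogenic regulator *Myog* (3 libraries). Both groups received lentivirus at a multiplicity of infection of 100, were selected with 2 µg/ml puromycin and were taken on day 5 in 2% horse serum. The comparison addressed what repression of Myog-En5 changed in the transcriptome. The labels do not say whether replicates were separate cultures, so the p-values measure the spread between these samples, which may be technical.

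MMPs are zinc-dependent endopeptidases that are made as inactive proenzymes and cut collagens, gelatins, laminins and other matrix proteins, and TIMPs bind their active sites. In muscle, the gelatinases and their inhibitors take part in remodelling of the basement membrane around fibres during growth and repair. Stromal cells are well-known sources of the enzyme encoded by *Mmp2*, and macrophages and neutrophils of that encoded by *Mmp9*, although many cells make either.

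The libraries held 31831093 to 73988425 counts, and 3 counts, the limit that a count of 0 allows, were 0.0405 to 0.0942 CPM, counts scaled to the library total (counting error only). dCas9-KRAB-En5 replicate 3 stood apart. It listed 13991 genes against 17084 to 19395 elsewhere, and 25.8% of its counts fell in genes of ribosomal proteins, where the other libraries had 10.8% to 19.4%. *Myog* was at 1065 to 1224 TPM (counts divided by exon length and scaled to the same total in every library) in dCas9-KRAB cells and at 0 to 0.379 in dCas9-KRAB-En5 cells. The labelled cell type is myoblasts, but the 8 muscle markers summed to 4132 to 9466 TPM in dCas9-KRAB libraries and to only 8.94 to 15.7 in dCas9-KRAB-En5 libraries, where *Myod1* and *Mymk* were at or near 0. The 10 macrophage markers summed to 3533 to 3932 TPM and 4827 to 7464 TPM, most of it from *Tyrobp*, *Cd14*, *Fcer1g*, *Cd68*, *Csf1r* and *Spi1*, each at 132 TPM or more in all 6 libraries. *Adgre1* (7.62 to 135 TPM), *Itgam* (2.56 to 63.3) and *Ptprc* (0.754 to 7.91) were lower and *Mrc1* was at 0. The 10 fibroblast markers summed to 70.4 to 206 TPM and 20.9 to 39.3 TPM, with *Thy1* at 0 in all libraries. In RNA from a whole culture, fewer cells of a type and less RNA per cell cannot be told apart.

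The promoters of 3 of the genes are shown because *Mmp3*, *Mmp13* and *Mmp12* lie in one cluster of MMP genes on chromosome 9 and share a sequence that the other 5 genes with a window lack. The 250 bases before each RefSeq start site (GRCm38.p6, plus strand) are given 5′ to 3′, with capitals for an AP-1 motif (TGANTCA) and for a TATA motif (TATAAA). For *Mmp3* this is chr9:7445572-7445821, for *Mmp13* chr9:7272264-7272513 and for the second of 2 *Mmp12* starts chr9:7347124-7347373.
Mmp3: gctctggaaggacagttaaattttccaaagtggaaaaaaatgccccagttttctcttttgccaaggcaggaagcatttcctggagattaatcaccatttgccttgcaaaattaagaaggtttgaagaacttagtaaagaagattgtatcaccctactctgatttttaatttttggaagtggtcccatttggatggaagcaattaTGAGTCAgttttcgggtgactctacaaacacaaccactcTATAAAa
Mmp13: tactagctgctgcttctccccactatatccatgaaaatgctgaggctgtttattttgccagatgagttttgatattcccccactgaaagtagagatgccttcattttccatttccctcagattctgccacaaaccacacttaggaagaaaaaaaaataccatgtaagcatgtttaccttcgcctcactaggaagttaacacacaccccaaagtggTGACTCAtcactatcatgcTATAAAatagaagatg
Mmp12: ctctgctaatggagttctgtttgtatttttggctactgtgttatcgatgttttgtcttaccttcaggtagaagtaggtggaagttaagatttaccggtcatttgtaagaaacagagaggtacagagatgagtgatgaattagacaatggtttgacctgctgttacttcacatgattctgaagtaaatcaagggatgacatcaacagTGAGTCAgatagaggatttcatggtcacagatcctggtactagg
The AP-1 motif begins 46 bases before the start in *Mmp3*, 35 bases in *Mmp13* and 44 bases at the second *Mmp12* start. TATAAA is 7 and 16 bases before the start in *Mmp3* and *Mmp13*. The window of the first *Mmp12* start, chr9:7344147-7344396, held neither motif.

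TGANTCA, searched on both strands, was found in 6.75% of 32851 promoter windows of the same length, TATAAA in 12.4%, and both in 1.21%. Of the 10 MMP genes of the chromosome 9 cluster with a window, 8 had the AP-1 motif and 7 had both motifs, and of the 13 MMP, TIMP and *Reck* genes with a window on other chromosomes, 0 had the AP-1 motif. *Mmp8* and *Mmp27* were the members of the cluster without it. The E-box CAGCTG (13% of windows) was in the window of *Timp2*, and GAGGAA, the core of sites bound by PU.1 (23.3% of windows), was in those of *Mmp8* and of the first *Mmp12* start. The windows of *Mmp14*, *Timp1* and *Timp3* held none of these letters, and *Mmp2* and *Mmp9* had no window. No binding was measured in these libraries.

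*Timp1* and *Timp2* were the most abundant of the 10 transcripts in dCas9-KRAB cells and had the largest differences in mean TPM between the groups. *Timp2* fell in dCas9-KRAB-En5 cells, and *Timp1* was lower in each of their libraries but passed both cutoffs only in some fits. The remaining inhibitor, *Timp3*, was rare in both groups and did not pass the test. A gene passed where the adjusted p was 0.01 or less and the log2 fold change, dCas9-KRAB-En5 over dCas9-KRAB, was 1 or more in size. The test was the quasi-likelihood test of edgeR, with p-values adjusted by Benjamini-Hochberg over 14378 genes.

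*Timp2*, whose protein both inhibits MMPs and holds the *Mmp2* proenzyme at the cell surface, lies at chr11:118301069-118355740 on the minus strand. It had 120, 203 and 144 TPM in dCas9-KRAB replicates 1 to 3 and 10.5, 9.05 and 14.9 TPM in dCas9-KRAB-En5 replicates 1 to 3. The groups did not overlap, and the highest dCas9-KRAB-En5 library was far below the lowest dCas9-KRAB library. The means were 156 ± 43.0 and 11.5 ± 3.02 TPM (SD, n = 3 each), 13.6-fold apart, and the log2 fold change was -3.63 (SE 0.63, adjusted p = 0.00333 by edgeR). Without any 1 of the dCas9-KRAB libraries the adjusted p by edgeR was 0.0115 to 0.0273, above the cutoff, with log2 fold changes of -3.78 to -3.50. Without dCas9-KRAB-En5 replicate 3 the log2 fold change was -4.59.

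*Timp1*, the inhibitor that also binds the *Mmp9* proenzyme, lies at chrX:20870166-20874735, inside *Syn1* on the opposite strand with 0 shared exonic bases. It had 354, 373 and 398 TPM in dCas9-KRAB cells and 96.1, 35.1 and 73.7 TPM in dCas9-KRAB-En5 cells. The dCas9-KRAB libraries were close to each other, the dCas9-KRAB-En5 libraries were spread more widely, and the groups did not overlap. The means were 375 ± 22.0 and 68.3 ± 30.9 TPM (SD, n = 3 each), 5.49-fold apart. The log2 fold change of -2.42 (SE 0.59) missed the cutoff at an adjusted p of 0.0179 by edgeR, and passed it when the replicate number was a block (-2.70, adjusted p = 0.00231) and with DESeq2 (-2.42, adjusted p = 0.000517). Without dCas9-KRAB-En5 replicate 3 it passed at -3.09 (adjusted p = 0.00144). By TPM, *Timp1* ranked 399th to 416th among the genes of a dCas9-KRAB library and 1004th to 2793rd in dCas9-KRAB-En5 libraries, while *Timp2* went from 683rd to 886th to 2867th to 6380th.

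*Timp3*, whose protein is held in the matrix and also inhibits ADAM proteases, lies at chr10:86300372-86349506. It had 1.14, 1.04 and 0.444 TPM in dCas9-KRAB cells and 2.71, 2.30 and 0.697 TPM in dCas9-KRAB-En5 cells. Each dCas9-KRAB-En5 library was above the dCas9-KRAB library of its number, but replicate 3 lay within the range of dCas9-KRAB, so the groups overlapped. The log2 fold change of 0.82 (SE 0.54) did not pass (adjusted p = 0.32 by edgeR, and 0.208 with the block). Of its exonic bases, 1733 (21.3%) are shared with *Syn3* on the opposite strand, which had at most 5 counts in a library. *Timp1* and *Timp2* together made 99.8% to 99.9% of the inhibitor TPM in dCas9-KRAB libraries and 95.1% to 99.2% in dCas9-KRAB-En5 libraries, and *Timp1* exceeded *Timp2* 1.83- to 2.96-fold in the former and 3.87- to 9.16-fold in the latter.

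**Figure D1:**
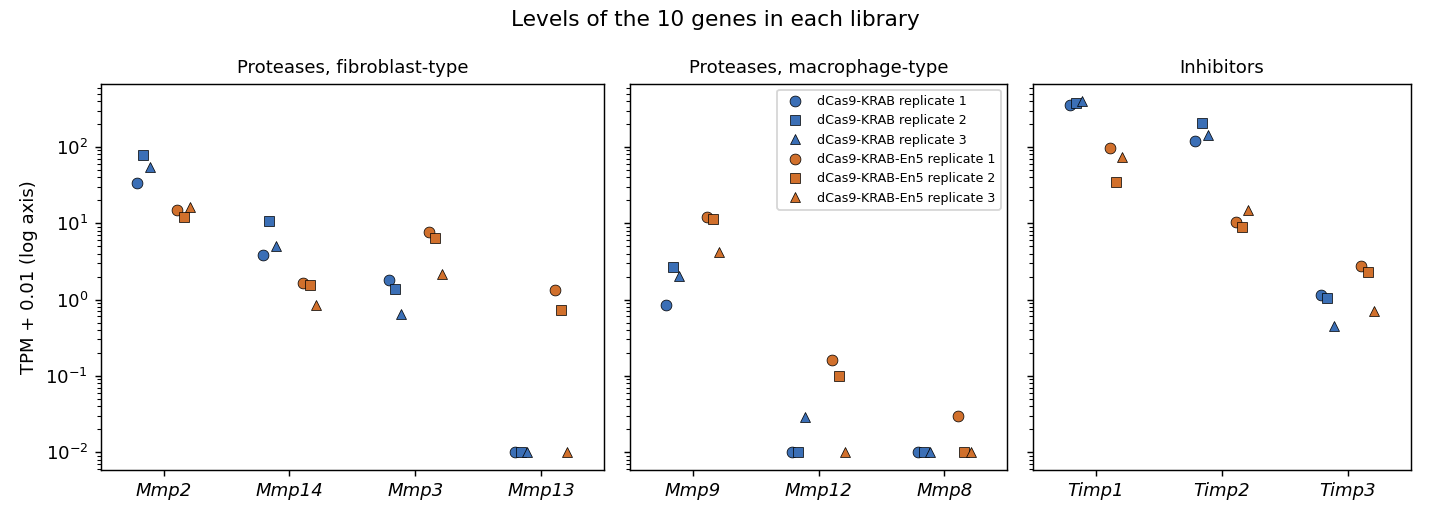
TPM plus 0.01 (log axis) of the 10 genes in each of the 6 libraries, with dCas9-KRAB in blue and dCas9-KRAB-En5 in orange and 1 point a library (circle, square and triangle for replicates 1 to 3). *Mmp2*, *Mmp14*, *Timp1* and *Timp2* were lower and *Mmp3* and *Mmp9* higher in all 3 dCas9-KRAB-En5 libraries, and *Timp3* overlapped; points at 0.01 are libraries with 0 counts.

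Among the fibroblast-type proteases, *Mmp14* fell, *Mmp2* was lower and *Mmp3* higher in each dCas9-KRAB-En5 library without passing both cutoffs, and *Mmp13* was detected in dCas9-KRAB-En5 libraries alone. The 4 genes of this group therefore did not move one way. Their summed level was 39.2 to 90.2 TPM in dCas9-KRAB cells and 19.2 to 25.4 TPM in dCas9-KRAB-En5 cells.

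*Mmp2* encodes gelatinase A and lies at chr8:92827291-92853420. It had 33.6, 78.0 and 55.1 TPM in dCas9-KRAB cells and 14.8, 12.1 and 16.2 TPM in dCas9-KRAB-En5 cells. All dCas9-KRAB libraries were above all dCas9-KRAB-En5 libraries, with replicate 1 the lowest and replicate 2 the highest of the former. The means of 55.6 ± 22.2 and 14.4 ± 2.04 TPM (SD, n = 3 each) were 3.87-fold apart. The log2 fold change of -1.88 (SE 0.54) missed the cutoff (adjusted p = 0.0355 by edgeR, and 0.0109 with the block) and passed it with DESeq2 (adjusted p = 0.00754) and without dCas9-KRAB-En5 replicate 3 (-2.63, adjusted p = 0.0013).

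*Mmp14*, the membrane-type MMP that cleaves collagen at the cell surface and activates the *Mmp2* proenzyme, lies at chr14:54431612-54445364. It had 3.80, 10.9 and 4.95 TPM in dCas9-KRAB cells and 1.63, 1.53 and 0.843 TPM in dCas9-KRAB-En5 cells. The groups did not overlap, and replicate 2 stood above the other dCas9-KRAB libraries. The means were 6.54 ± 3.78 and 1.34 ± 0.430 TPM (SD, n = 3 each), with a log2 fold change of -2.42 (SE 0.50, adjusted p = 0.00821 by edgeR). The call was lost without any 1 library other than dCas9-KRAB-En5 replicate 3 (adjusted p 0.0169 to 0.0535 by edgeR) and on TPM (0.0885 and 0.102 by limma), and with library totals in place of TMM it was 0.0189.

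*Mmp3*, a stromelysin that cuts proteoglycans and laminin and activates other MMPs, lies at chr9:7445822-7455975. It had 1.80, 1.35 and 0.645 TPM in dCas9-KRAB cells and 7.68, 6.45 and 2.18 TPM in dCas9-KRAB-En5 cells. The groups did not overlap, although dCas9-KRAB-En5 replicate 3 lay close to dCas9-KRAB replicate 1. The means were 1.27 ± 0.583 and 5.44 ± 2.88 TPM (SD, n = 3 each) and the log2 fold change of 1.81 (SE 0.61) did not pass (adjusted p = 0.0615 by edgeR, 0.0305 with the block). Of the 50-base words of its exons, 7.99% also occur in *Mmp10*, so the assignment of reads in that part is uncertain.

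*Mmp13*, the main fibrillar collagenase of rodents, lies at chr9:7272514-7283331. It had 0 counts in each dCas9-KRAB library, which allows up to 0.0251 to 0.0414 TPM, and 1.31, 0.728 and 0 TPM in dCas9-KRAB-En5 cells (74, 33 and 0 counts). It was therefore seen in 2 of 3 dCas9-KRAB-En5 libraries, and replicate 3, at 0, allows up to 0.0490 TPM. Against a floor of 3 counts per library, the dCas9-KRAB-En5 mean was at least 21.1-fold higher. The low-count filter left *Mmp13* untested. Without the filter it passed in edgeR (adjusted p = 0.00037), where 9.46% of all genes passed, against 6.19% in the reported fit. Its counts came from dCas9-KRAB-En5 libraries alone, so this call is not read as support.

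The macrophage-type group was *Mmp9* in practice. *Mmp9* was higher in each dCas9-KRAB-En5 library, and *Mmp12* and *Mmp8* were near the limit of detection in all 6 libraries. Neither passed the low-count filter, and without the filter neither passed the test (adjusted p = 0.326 for *Mmp12* and 0.506 for *Mmp8* by edgeR).

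*Mmp9* encodes gelatinase B and lies at chr2:164940780-164955850. It had 0.833, 2.66 and 2.01 TPM in dCas9-KRAB cells and 12.2, 11.4 and 4.20 TPM in dCas9-KRAB-En5 cells. The groups did not overlap, and dCas9-KRAB-En5 replicate 3 was the lowest of its group, nearest to dCas9-KRAB replicate 2. The means were 1.83 ± 0.925 and 9.27 ± 4.42 TPM (SD, n = 3 each), 5.06-fold apart. The log2 fold change of 2.09 (SE 0.52) missed the cutoff (adjusted p = 0.0196 by edgeR) and passed it with the block (2.19, adjusted p = 0.00773) and with DESeq2 (2.04, adjusted p = 0.00132), and without dCas9-KRAB-En5 replicate 3 (2.10, adjusted p = 0.00612).

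*Mmp12*, macrophage elastase (chr9:7344381-7369499), had 0, 0 and 6 counts in dCas9-KRAB cells and 23, 11 and 0 counts in dCas9-KRAB-En5 cells, at most 0.150 TPM. *Mmp8*, the collagenase of neutrophil granules (chr9:7558456-7568485), had 1 count in dCas9-KRAB-En5 replicate 1 and 0 elsewhere, which allows up to 0.0276 to 0.0730 TPM. The groups overlapped for both genes, and no difference was detectable at this depth. The transcripts that define neutrophils were also scarce, with *S100a9*, *Ly6g* and *Mpo* at 0 in 5 of 6 libraries each. Of the others, *S100a8*, which macrophages can also make, had 0, 0.500 and 0.193 TPM in dCas9-KRAB cells and 5.92, 1.19 and 12.0 TPM in dCas9-KRAB-En5 cells (adjusted p = 0.0217 by edgeR and 2.6e-05 by DESeq2). *Camp* had 4.47 to 6.77 and 0.576 to 0.872 TPM (0.0186 and 0.000296), and the 8 neutrophil markers summed to 2.25 to 12.5 TPM over all libraries.

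The macrophage markers moved in part with *Mmp9*. Of the 9 tested, 1 passed both cutoffs, *Adgre1* (F4/80), against 6.19% of all genes tested (1.52% higher). It had 17.7, 7.62 and 9.09 TPM in dCas9-KRAB cells and 135, 122 and 29.6 TPM in dCas9-KRAB-En5 cells (log2 fold change 2.68, SE 0.54, adjusted p = 0.00706 by edgeR). With the block *Itgam* passed too (2.39, adjusted p = 0.00499). *Adgre1* and *Cd68* (281 to 478 and 621 to 1071 TPM) were the 2 of 9 apart and higher, against 7.76% of all genes tested. The groups overlapped for the other 7, of which *Spi1* and *Fcer1g* had log2 fold changes below 0 (-0.32 and -0.16). *Csf1r*, the receptor for macrophage colony-stimulating factor, overlapped between the groups (132 to 443 and 186 to 668 TPM; log2 fold change 0.32, SE 0.52, adjusted p = 0.702). Per 100 TPM of *Csf1r*, *Mmp9* was at 0.629, 0.600 and 0.621 TPM in dCas9-KRAB cells and at 2.43, 1.70 and 2.26 TPM in dCas9-KRAB-En5 cells. This ratio did not overlap between groups and was nearly constant among dCas9-KRAB libraries, but on the other marker scales *Mmp9* varied among them. Against 100 TPM of *Cd68* it was 0.297 to 0.556 in dCas9-KRAB cells and 0.676 to 1.65 in dCas9-KRAB-En5 cells, without overlap. The groups were also apart against the summed macrophage markers. Per 100 TPM of *Adgre1* it was 4.72 to 34.9 and 9.06 to 14.2, and of *Itgam* 19.2 to 78.2 and 18.0 to 117, so on those scales the groups overlapped. The osteoclast markers summed to 1.55 to 2.69 TPM and 4.75 to 25.5 TPM, with *Acp5* the 1 of 2 tested past both cutoffs, *Ctsk* at no more than 0.141 TPM and *Calcr* at 0. The part that the mix of cells played in the level of *Mmp9* was not tested.

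All 8 muscle markers fell. Of the 6 fibroblast markers tested, *Pdgfra* alone had a log2 fold change above 0, and the median of the 6 was -1.74. The groups overlapped for 4 of them and were apart and lower in dCas9-KRAB-En5 cells for 2, against 19.7% of all genes tested. Of the 6, *Col1a1* alone passed both cutoffs (log2 fold change -3.65, SE 0.71, adjusted p = 0.0062 by edgeR), against 6.19% of all genes tested (4.67% lower). It had 9.73, 68.0 and 33.6 TPM in dCas9-KRAB cells and 2.52, 2.70 and 3.08 TPM in dCas9-KRAB-En5 cells. With the block *Col1a2* passed too (-2.76, adjusted p = 0.00728). dCas9-KRAB replicate 2 had the highest level of *Col1a1*, as it had of *Mmp2*, *Mmp14* and *Timp2*. Among dCas9-KRAB libraries it was also the highest for each of the 8 muscle markers (summed TPM 9466, against 4132 and 6866) and for *Csf1r* (443 TPM). *Dcn* was highest in replicate 1, so this order was not particular to fibroblast markers. *Dcn* had 16.8 to 38.2 TPM and 7.24 to 18.8 TPM, with overlap (adjusted p = 0.0953 by edgeR). *Pdgfra* had 0.147 to 0.466 and 0 to 0.930 TPM (log2 fold change 0.53, SE 1.10). The part of either cell type in the levels of *Mmp2*, *Mmp14*, *Timp1* and *Timp2* was not tested.

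By count, 2 of the 7 tested members passed both cutoffs, *Mmp14* and *Timp2*, both lower, against 6.19% of all genes tested (4.67% lower, 1.52% higher). Each of the 7 had at least 52 counts in every library. The members were chosen with earlier results of these data known, so the shares of all genes are given for scale only. With the replicate number as a block 4 passed (*Mmp14*, *Timp1* and *Timp2* lower, *Mmp9* higher), where 10.7% of all genes passed (6.79% lower, 3.94% higher). With DESeq2 these and *Mmp2*, lower, passed, where 16.2% of all genes did (9.47% lower, 6.77% higher). Without the low-count filter *Mmp13*, with counts in dCas9-KRAB-En5 libraries alone, was added as higher, for 6 of 10. There 9.46% of all genes passed (5.14% lower, 4.32% higher). Without dCas9-KRAB-En5 replicate 3 the 5 genes that passed with DESeq2 passed, where 25.7% of all genes did (14% lower, 11.7% higher). *Mmp13* also passed there, but it met the filter only through the 2 libraries in which it was seen. Without dCas9-KRAB replicate 1, 2 or 3 in turn, 0 of 9 passed in edgeR, where 1.47%, 2.15% and 2.63% of all genes did. Of the 9, 7 had an unadjusted p under 0.05, against 31.5%, 26.4% and 22.5% of all genes. *Mmp12* and *Mmp13* were among the 9 and met the filter only through dCas9-KRAB-En5 libraries, so this count is not read as a result. The TPM of 4 members were lower and of 2 higher in every dCas9-KRAB-En5 library, against 19.7% and 7.76% of all genes tested (27.5% in either direction). For each of these 6 genes an exact permutation test of TPM gave a two-sided p of 0.1, the smallest that 3 against 3 allows. The median log2 fold change of the 7 was -1.88, and that of all genes tested 0.08. The members went both ways. With *Mmp8*, *Mmp12* and *Mmp13* tested too, without the filter, the median was 1.29 (0.18 over all genes). *Mmp8* had 1 count in all, and *Mmp12* and *Mmp13* had most or all of their counts in dCas9-KRAB-En5 libraries. Without dCas9-KRAB-En5 replicate 3 the median was 0.92 over 9. *Mmp12* and *Mmp13*, among these 9, again met the filter only through dCas9-KRAB-En5 libraries. Neither change of the median is read as a result.

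**Figure D2:**
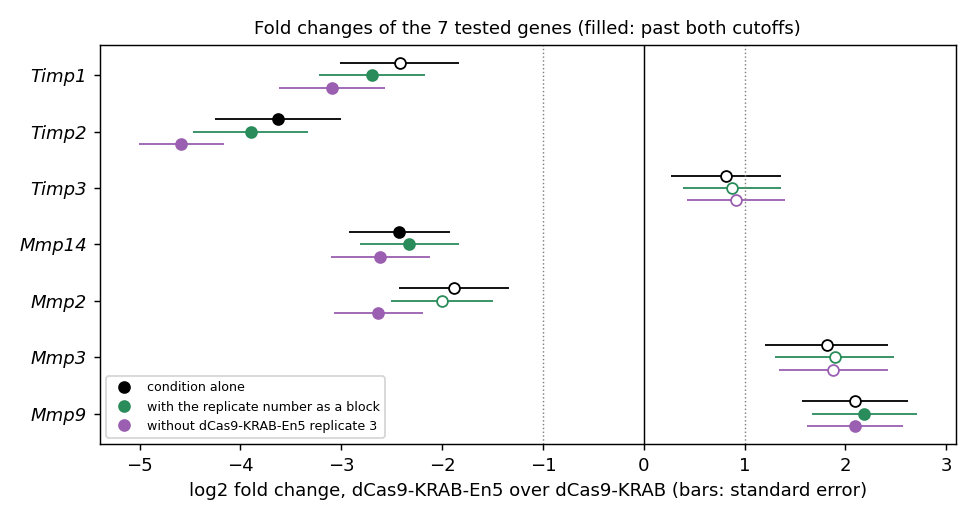
Log2 fold changes, dCas9-KRAB-En5 over dCas9-KRAB, of the 7 tested genes by edgeR with condition alone, with the replicate number as a block, and without dCas9-KRAB-En5 replicate 3. Bars are standard errors, filled points passed both cutoffs and dotted lines mark a log2 fold change of 1 in size; the direction of each gene was the same in the 3 fits, and *Timp2* and *Mmp14* passed in all of them.

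The order of the transcripts differed between the groups as follows. In dCas9-KRAB cells the levels ran *Timp1*, *Timp2*, *Mmp2*, *Mmp14*, *Mmp9*, *Mmp3* and *Timp3*, and the first 4 ranges did not meet those of their neighbours, whereas *Mmp9* and *Mmp3*, and *Mmp3* and *Timp3*, did. In dCas9-KRAB-En5 cells *Timp1* stood first in each library, and *Mmp2*, *Timp2*, *Mmp9*, *Mmp3*, *Timp3*, *Mmp14* and *Mmp13* followed with ranges that each met that of the next gene. *Mmp2* was above *Timp2* in 3 of 3 dCas9-KRAB-En5 libraries and below it in 3 of 3 dCas9-KRAB libraries.

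Ratios within a library do not depend on its scaling. The summed TPM of the 3 inhibitors exceeded that of the 7 proteases 11.9-, 6.21- and 8.65-fold in dCas9-KRAB cells and 2.89-, 1.44- and 3.82-fold in dCas9-KRAB-En5 cells, with means of 8.91 ± 2.84 and 2.72 ± 1.20 (SD, n = 3 each). The 3 inhibitors thus remained above the 7 proteases in all 6 libraries, and the groups did not overlap. Against the sum of all listed MMP genes, the 3 inhibitors were lower in dCas9-KRAB-En5 replicate 2 alone (46.4 against 51.8 TPM). The summed inhibitors were 6.51-fold lower on average in dCas9-KRAB-En5 cells (532 ± 51.8 and 81.7 ± 32.1 TPM) and the summed proteases 2.09-fold (65.2 ± 26.5 and 31.2 ± 7.27 TPM).

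The pairs that bind each other as proenzyme and inhibitor were also set against each other. *Timp2* to *Mmp2* was 3.56, 2.60 and 2.61 in dCas9-KRAB cells and 0.711, 0.746 and 0.919 in dCas9-KRAB-En5 cells, on opposite sides of 1. *Timp1* to *Mmp9* was 425, 140 and 198 in dCas9-KRAB cells and 7.85, 3.08 and 17.6 in dCas9-KRAB-En5 cells. *Mmp2* to *Mmp14*, an enzyme and its activator, was 8.83, 7.19 and 11.1 against 9.05, 7.92 and 19.2, and overlapped.

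The make-up of the protease pool differed between the groups without overlap. Fibroblast-type genes held 97.9%, 97.1% and 96.8% of the TPM of the 7 proteases in dCas9-KRAB cells and 67.2%, 64.5% and 82.1% in dCas9-KRAB-En5 cells. *Mmp2* alone held 83.9% to 87.9% and 37.6% to 69.1%. *Mmp9* held 2.08% to 3.20% and 17.9% to 35.2%, and *Mmp3*, counted with the fibroblast-type genes, 1.03% to 4.50% and 9.34% to 20.3%. The gelatinase ratio *Mmp2* to *Mmp9* was 40.3, 29.4 and 27.5 in dCas9-KRAB cells and 1.21, 1.07 and 3.85 in dCas9-KRAB-En5 cells. dCas9-KRAB-En5 replicate 3 was the library of its group nearest to dCas9-KRAB in each of these shares.

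**Figure D3:**
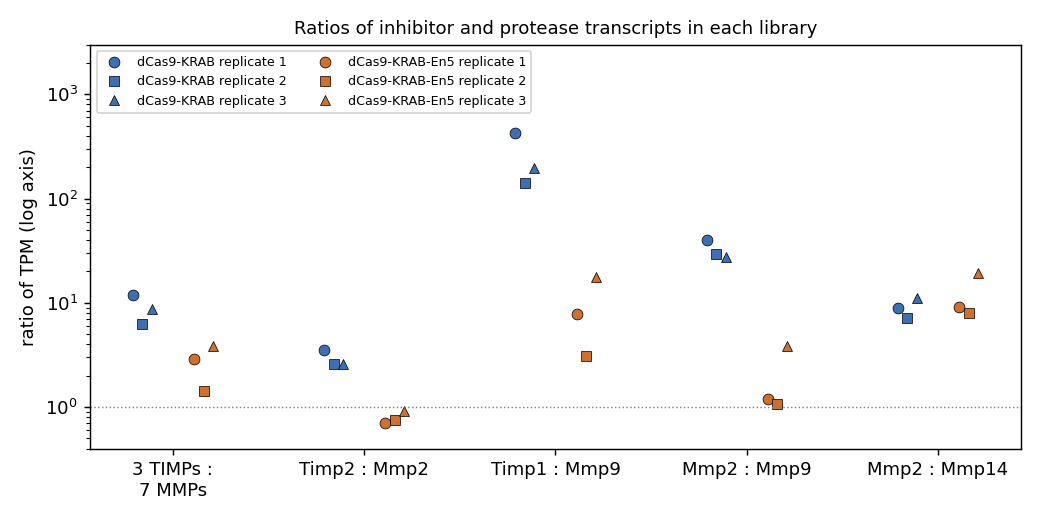
Ratios of TPM within each library (log axis), from the summed inhibitors over the summed proteases to *Mmp2* over *Mmp14*, with 1 point a library, dCas9-KRAB in blue and dCas9-KRAB-En5 in orange, and a dotted line at 1. The groups did not overlap for the first 4 ratios and overlapped for *Mmp2* over *Mmp14*.

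On chromosome 9, the MMP cluster holds *Mmp13*, *Mmp12*, *Mmp1b*, *Mmp3*, *Mmp1a*, *Mmp10*, *Mmp8*, *Mmp27*, *Mmp20* and *Mmp7* in that order. *Mmp1a*, *Mmp1b*, *Mmp7*, *Mmp20* and *Mmp27* were at 0 in all libraries. *Mmp10*, a stromelysin close in sequence to *Mmp3*, had 0.193, 0.0776 and 0.233 TPM in dCas9-KRAB cells and 1.48, 2.29 and 0.837 TPM in dCas9-KRAB-En5 cells. Its log2 fold change of 2.89 (SE 0.88) did not pass (adjusted p = 0.0422 by edgeR), and passed with DESeq2 (2.88, adjusted p = 0.00596). *Mmp3* and *Mmp10* were thus higher in each dCas9-KRAB-En5 library than in any dCas9-KRAB library, *Mmp13* and *Mmp12* were at 0 in dCas9-KRAB-En5 replicate 3, and no gene of the cluster was lower in all 3 dCas9-KRAB-En5 libraries. The genes with counts above the limit of 3 in any library, *Mmp13*, *Mmp12*, *Mmp3* and *Mmp10*, were all among the 8 with the AP-1 motif, and 4 others of the 8 were at 0.

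**Figure D4:**
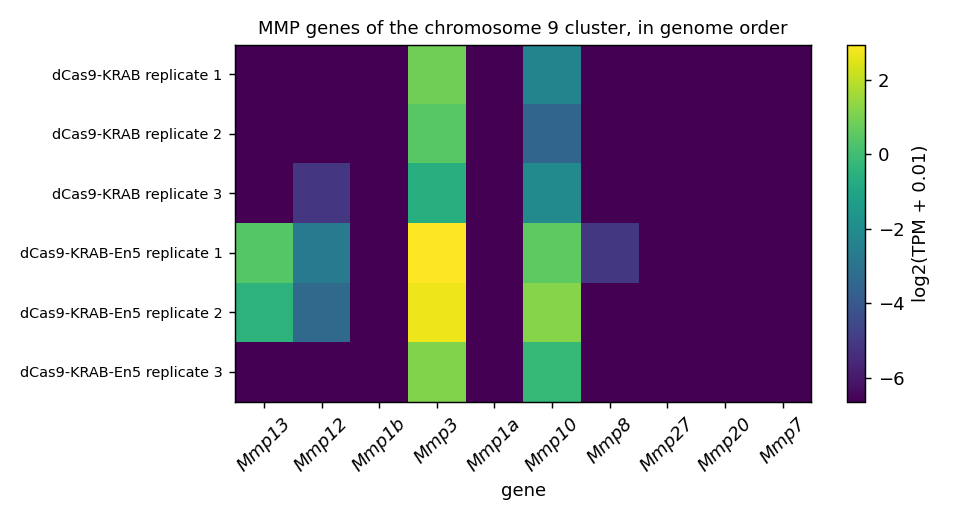
Log2(TPM + 0.01) of the 10 MMP genes of the chromosome 9 cluster, in genome order along the horizontal axis and with 1 row for each library, the darkest colour standing for 0 counts. *Mmp3* and *Mmp10* were present in all 6 libraries, *Mmp13* in dCas9-KRAB-En5 replicates 1 and 2, and *Mmp12* weakly in 3 libraries.

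Of the other 18 MMP, TIMP and related genes, 12 were listed and 6 were tested. *Mmp15*, a membrane-type MMP, was the 1 gene past both cutoffs, against 6.19% of all genes tested (4.67% lower). It fell in dCas9-KRAB-En5 cells, and the median log2 fold change of the 6 was -2.64. *Mmp15* had 1.54, 4.78 and 2.90 TPM in dCas9-KRAB cells and 3, 2 and 0 counts in dCas9-KRAB-En5 cells (adjusted p = 0.000182 by edgeR). The ratio of its summed CPM, dCas9-KRAB over dCas9-KRAB-En5, was 224 (95% exact interval 96.0 to 692, counting error only).

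The most abundant of the others in dCas9-KRAB cells was *Mmp11*, the stromelysin that furin activates inside the cell, with 13.8, 34.4 and 23.9 TPM in dCas9-KRAB cells and 1.97, 0.658 and 5.69 TPM in dCas9-KRAB-En5 cells. It was lower in each dCas9-KRAB-En5 library (log2 fold change -2.69, SE 0.88, adjusted p = 0.0564 by edgeR), and passed with the block (-3.55, adjusted p = 0.00431) and with DESeq2 (adjusted p = 0.00731). Without dCas9-KRAB-En5 replicate 3 it was at -4.73 (adjusted p = 0.00048). *Mmp28* had 1.76, 7.57 and 5.52 TPM and 0.487, 0.472 and 0.801 TPM in the same order of groups, also without overlap (log2 fold change -2.92, SE 0.74, adjusted p = 0.0206 by edgeR), and passed with the block (adjusted p = 0.00299), with DESeq2 (0.00046) and without dCas9-KRAB-En5 replicate 3 (-3.95, 0.00133). *Mmp19*, the most abundant in dCas9-KRAB-En5 replicates 1 and 2 and a protease found among other places in macrophages, had 2.47, 3.89 and 2.996 TPM and 17.9, 15.6 and 3.14 TPM, higher within each number although replicate 3 lay within the range of dCas9-KRAB (log2 fold change 1.61, SE 0.49, adjusted p = 0.0437 by edgeR, 0.0342 with the block and 0.0034 without dCas9-KRAB-En5 replicate 3). Within the TPM of all listed MMP genes, *Mmp11* held 22.9% to 24.1% in dCas9-KRAB libraries and 1.27% to 16.8% in dCas9-KRAB-En5 libraries, and *Mmp19* 2.69% to 4.11% and 9.28% to 30.2%.

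Genes of proenzyme activation and the plasminogen system gave 1 call among 12 tested, *Serpinb2*, an inhibitor of plasminogen activators, which rose (log2 fold change 4.68, SE 0.90, adjusted p = 0.00595 by edgeR), against 6.19% of all genes called. It had 0.424, 0.330 and 0.285 TPM in dCas9-KRAB cells and 6.19, 2.51 and 12.9 TPM in dCas9-KRAB-En5 cells, with no overlap. The call was lost without any 1 dCas9-KRAB library (adjusted p 0.0241 to 0.058) and on TPM by limma (0.0111 and 0.0239), and without dCas9-KRAB-En5 replicate 3, the highest, the log2 fold change was 3.07. *Bsg* (basigin, an inducer of MMPs) was the most abundant gene of this list, at 927 to 1172 TPM and 733 to 2405 TPM with overlap (log2 fold change 0.21, SE 0.46). *Plau*, the urokinase gene, had 61.4 to 86.1 and 23.2 to 192 TPM (0.15, SE 0.50), and *Lrp1*, an endocytic receptor for MMPs and TIMPs, 8.54 to 31.9 and 15.5 to 135 TPM (1.60, SE 0.60), both with overlap. With the block *Furin*, a proprotein convertase that activates *Mmp14*, also passed (1.93, adjusted p = 0.00971 by edgeR), as with DESeq2 (0.00426) and without dCas9-KRAB-En5 replicate 3 (0.0097), where *Lrp1* passed too (0.00979). The median of the 12 was 1.10.

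Of 14 ADAM and ADAMTS genes tested, 4 passed both cutoffs, all lower, against 6.19% of all genes (4.67% lower). *Adam19*, a metalloprotease of muscle and other mesenchymal tissue, had 2.81, 6.70 and 3.59 TPM in dCas9-KRAB cells and 0.438, 0.257 and 0.043 TPM in dCas9-KRAB-En5 cells (log2 fold change -4.49, SE 0.67, adjusted p = 0.00123 by edgeR). *Adamts2*, a procollagen peptidase, had 1.52, 4.60 and 2.87 TPM and 0.313, 0.190 and 0.257 TPM (-3.53, SE 0.63, adjusted p = 0.00401). *Adamts5*, an aggrecanase, had 0.984, 1.80 and 0.536 TPM and at most 0.0607 TPM (-5.06, SE 1.09, adjusted p = 0.00965). None of the 3 overlapped between groups. *Adamts5* lost the call in 8 of 13 alternatives, among them leaving out any 1 library other than dCas9-KRAB-En5 replicate 3 (adjusted p 0.0107 to 0.0606 by edgeR), without which it was at -7.71. *Adamts2* lost it in 6 of 14, among them without dCas9-KRAB-En5 replicate 2 (0.0134) or any 1 dCas9-KRAB library (0.0123 to 0.024 by edgeR), and was at -4.13 without dCas9-KRAB-En5 replicate 3. *Adam19* lost it without dCas9-KRAB replicate 1 (0.0111 by edgeR), was at -5.14 without dCas9-KRAB-En5 replicate 1, and lost it on log2(TPM + 1) by limma (0.0117). *Adamts15*, another aggrecanase, had 0.313, 1.81 and 1.09 TPM in dCas9-KRAB cells and 0 counts in each dCas9-KRAB-En5 library, at least 74.0-fold lower against a floor of 3 counts per library (adjusted p = 0.000689 by edgeR).

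*Adam8*, a protease of myeloid cells, had 9.79, 37.5 and 30.3 TPM in dCas9-KRAB cells and 420, 354 and 46.9 TPM in dCas9-KRAB-En5 cells. The groups did not overlap, the adjusted p by edgeR was 0.0112 at a log2 fold change of 3.01 (SE 0.67), and the gene passed with the block (2.93, adjusted p = 0.00615), as *Adamts1* did in the other direction (-4.05, adjusted p = 0.00761). Both passed without dCas9-KRAB-En5 replicate 3 (adjusted p = 0.000729 and 0.00356), as *Adam9* did (0.00151). *Adam15* (24.5 to 114 and 71.1 to 168 TPM) and *Adam9* (3.74 to 7.65 and 4.25 to 39.8 TPM) overlapped and did not pass (adjusted p = 0.546 and 0.0443 by edgeR). The median over the 14 was -1.92, also with *Adamts15* at its bound.

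**Figure D5:**
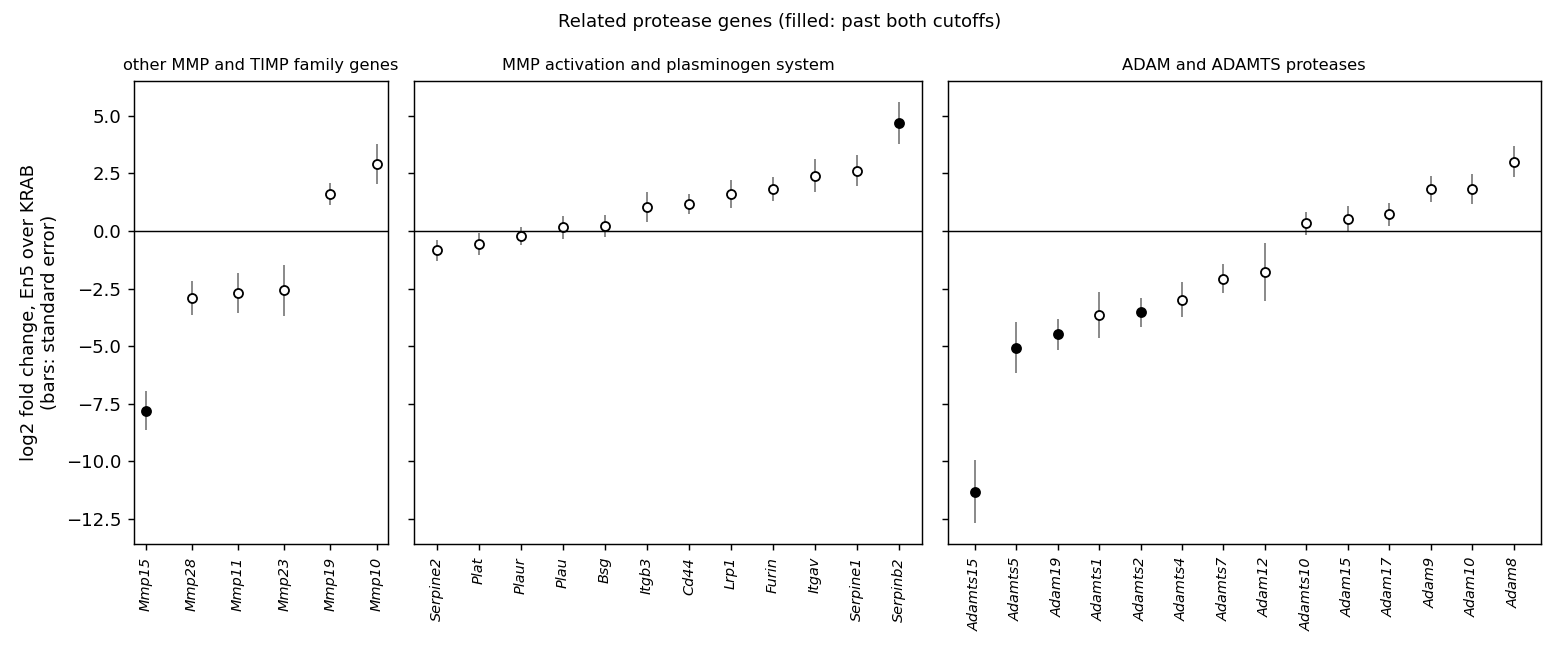
Log2 fold changes (dCas9-KRAB-En5 over dCas9-KRAB, with standard errors) of the tested genes of the 3 related lists, by edgeR with condition alone. Filled points passed both cutoffs, which were *Mmp15* and 4 ADAM and ADAMTS genes below 0 and *Serpinb2* above it; the fitted values of *Mmp15* and *Adamts15* rest on 5 and 0 counts in dCas9-KRAB-En5 cells.

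The genes whose levels followed the leading member of each group most closely were found among 5203 tested genes with a mean of at least 10 TPM, by Pearson correlation of log2(TPM + 1) over the 6 libraries. These libraries form the 2 groups compared, so that each value holds the group difference as well as the spread within groups. For *Mmp2* the genes were *Wnt10a* (0.999), *Cavin1*, *Orai1*, *Htra1* and *Fscn1* (0.995), and for *Timp1* they were *Mustn1* (0.994), *Ccl7*, *Tmem37*, *Bex3* and *G0s2* (0.981). For *Mmp9* they were *Per1* (0.999), *Chst1*, *Gmpr*, *Ier5* and *Dusp4* (0.995). The means of *Wnt10a* were 20.8 and 1.43 TPM in dCas9-KRAB and dCas9-KRAB-En5 cells, those of *Mustn1* 145 and 6.49 TPM, and those of *Per1* 10.2 and 95.5 TPM.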

How the data were processed

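RNA-Seq of 3 dCas9-KRAB and 3 dCas9-KRAB-En5 libraries of polyA RNA was used, grouped by the sample labels. The authors aligned reads to GRCm38 with HISAT2 2.2.1, used featureCounts to count reads in genes, and deposited both counts and TPM for all libraries. Strand setting and annotation release are not given in the sources used here, so opposite-strand overlaps were not separated. Gene lengths implied by the deposited counts and TPM lay within 1% of GENCODE exon lengths for 98.62% of 12933 genes. Genes not listed were taken as 0, and 23155 of 23231 were matched to a symbol.

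Counts were compared with edgeR 4.0.16 (R 4.3.3, TMM, filterByExpr with minimum count 10 and minimum total 15, quasi-likelihood test, condition alone). Alternatives were DESeq2 1.42.0, which the authors used, limma 3.58.1 on log2 TPM with a pseudocount of 1 or 0.1, other scalings and filters, the replicate block and leaving out each library. Folds from limma on TPM understate those of low genes. TPM means were compared by exact permutation (SciPy 1.17.1). Same-numbered libraries of the groups deviated together (r 0.214 to 0.29, against -0.34 to -0.0508 for other pairs). Deviations were taken from the mean of each group and sum to 0 there, so the negative values follow in part from the positive ones. The numbers, taken from the labels, were therefore treated as a possible pairing only. The reported fit, like the permutation tests, is unpaired, and the fit with the replicate block is given beside it where it changes a call. No pair of replicates agreed within sampling noise. On simulated counts for this comparison with 200 genes changed by 2 on the log2 scale, all 200 of 14227 tested genes that were changed were recovered, with 0 false calls. The simulation gave every gene the same spread between replicates and changed only well-counted genes. It does not show how many such changes are found, or falsely called, at the spread of these libraries.

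The members and lists were chosen with earlier results of these data known. Named are all members, the genes of each related list past both cutoffs, the 3 others with the highest mean TPM, markers as needed for a range, and the 5 genes most like each leading member. *Mmp10*, *Furin* and *Adamts1* were named after their values were seen. Promoters were taken from RefSeq, with a window for 8 of the 10 members. No protein sequence was used here.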

Additional observations from a re-analysis of the deposited data

How the results depend on the processing

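Over 14 alternatives, all 98 log2 fold changes of the 7 tested members kept their direction, 74 also their side of the cutoffs, 11 lost the call and 13 gained it. Genes past both cutoffs numbered 2336 with DESeq2, 586 with total counts alone, 2198 without the low-count filter, 544 with at least 10 counts in every library, 1543 with the replicate block and 514 with limma on log2(TPM + 1), and 222 to 3921 when 1 library was left out (890 in the reported fit). Members past both cutoffs numbered 5 with DESeq2, 1 with total counts alone, 6 without the filter, 4 with the replicate block and 0 to 6 with 1 library left out. Related genes past both cutoffs, 6 of 32 as reported, numbered 16 with DESeq2, 16 without the filter, 2 with at least 10 counts in every library, 11 with the replicate block, 1 with limma on log2(TPM + 1) and 2 to 18 with 1 library left out. The block changed no call of a named gene other than those given in the report. *Plau* turned to -0.00984 with the replicate block, and with 1 library left out ranged from -0.356 (without dCas9-KRAB-En5 replicate 2) to 0.396, and *Adamts10* from -0.0377 (without dCas9-KRAB replicate 1) to 0.540. The log2 difference in the inhibitor to protease ratio, dCas9-KRAB over dCas9-KRAB-En5, was 1.78, and 1.37 to 2.08 with 1 library left out. The causes were not tested. With 3 libraries a group and counts as low as 0 for *Mmp8*, *Mmp12* and *Mmp13*, small differences in these genes could not be resolved.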

Other observations

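The genes that flank the chromosome 9 MMP cluster on its *Mmp7* side include *Birc2* and *Birc3*, inhibitors of apoptosis, chosen here after their values were seen. Nearer to *Mmp7*, *Tmem123* (13.4 to 41.3 and 19.8 to 99.5 TPM) and the pseudogene *Gm10709* (91.8 to 141 and 120 to 173 TPM) overlapped between the groups. *Birc3* had 7.16, 6.57 and 6.80 TPM in dCas9-KRAB cells and 51.5, 41.6 and 7.78 TPM in dCas9-KRAB-En5 cells. Its groups did not overlap, as for 7.76% of all genes tested in that direction, but replicate 3 lay close to dCas9-KRAB. *Birc2* had 1.11, 0.758 and 0.761 TPM in dCas9-KRAB cells and 9.24, 6.17 and 0.544 TPM in dCas9-KRAB-En5 cells, with replicate 3 the lowest of the 6 libraries. On the other flank, *Dcun1d5* had 15.2 to 26.7 TPM and 13.4 to 35.2 TPM and overlapped.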
